A study of Oryza sativa with 6 samples.

Results

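Superoxide dismutases are the enzymes that turn the superoxide radical into hydrogen peroxide and oxygen, and they are sorted by the metal in their active site. Copper/zinc enzymes are known from the cytosol and plastids of plants, manganese enzymes from mitochondria, and iron enzymes mainly from plastids. The copper chaperone CCS hands copper to the copper/zinc enzymes. In Arabidopsis, short copper supply is known to raise the microRNA miR398, which acts on transcripts of copper/zinc dismutases and of CCS, while an iron dismutase takes over in the plastid. Ample copper is known to do the reverse there.

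The set described here holds 8 rice loci listed as copper/zinc, iron and manganese superoxide dismutases and CCS, read by every probe whose name starts with one of their locus numbers. These are 28 of the 42477 probes of the array, and 26 of them, on all 8 loci, were bright enough to be tested, among 23425 genes in all. The files give locus numbers and no gene names. The RefSeq gene table of assembly ASM3414082v1 contains 0 of the 8 locus numbers, so no locus is given a name here. That table lists the family names SodCc1 on chromosome 3, CCS on chromosome 4, sodA (also RMSOD1) on chromosome 5, SodCc2 on chromosome 7 and sodCp on chromosome 8. By the chromosome digits of the locus numbers, the set has 1 locus on each of chromosomes 4, 5, 7 and 8 and 2 on each of chromosomes 3 and 6. The chromosome is the only link between these names and the loci.

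The samples were rice roots (Oryza sativa, cultivar TN-67), taken from seedlings 6 days old. Copper-treated roots received 5 µM Cu (3 arrays), cadmium-treated roots 25 µM Cd (3 arrays), and the roots on the other channel of every array were kept in water. Cy5 marked the RNA of treated roots and Cy3 that of water roots on all 6 two-colour arrays, so each array gave a log2 ratio of treated over water roots. The dyes were not swapped, so for any probe a steady dye effect and a difference between metal and water cannot be told apart; such an effect cancels between the metals. The doses differ. How long the roots were exposed is not stated in these sources. The series names 3 control replicates for 6 arrays, so both metals may have been set against the same control RNA.

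Replicates 2 and 3 of both metals lay on 1 slide with 4 arrays, while replicate 1 of copper and replicate 1 of cadmium each lay on a slide of its own. Across the genes with a value on every array, replicates 2 and 3 correlated at 0.964 with copper and 0.95 with cadmium, while replicate 1 correlated with them at 0.811 and 0.84 with copper and at 0.826 and 0.802 with cadmium. Between 77.0% and 82.4% of probes were well above background in Cy5 and between 75.6% and 81.2% in Cy3. Of 3 loci listed as root markers, 3 were well above background in both channels on all 6 arrays. So were both loci listed for the small subunit of Rubisco, a protein of green tissue, each by at least 1 of its probes. The root markers had log2 ratios between -0.52 and 0.24 with copper, 1 of 3 called lower, and between -0.74 and 0.78 with cadmium, 2 called lower and 1 higher. The Rubisco loci had log2 ratios of -0.10 and 0.62 with copper and of 0.05 and 1.53 with cadmium. Their part in the results below was not tested. In whole roots, fewer cells of a type and less RNA per cell cannot be told apart.

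Of the 8 loci, 1 fell with copper and the same one fell with cadmium. It was Os06g0115400, and the other 7 did not pass the test with either metal (limma, Benjamini-Hochberg adjustment over all genes, threshold 0.05). Across all genes tested, 42.9% were called with copper, 25.4% higher and 17.5% lower, and 34.0% were called with cadmium, 21.1% higher and 12.9% lower. For the set, 0 of 8 loci were called higher with either metal, and 1 of 8 called lower is near the background. The median log2 ratio of the 8 loci was 0.06 with copper and -0.01 with cadmium, beside 0.02 and 0.01 over all genes. At an unadjusted p under 0.05 the loci numbered 2 of 8 with each metal, beside 12131 of 23425 genes with copper and 10699 with cadmium. No locus of the set changed at least 2-fold here, although Os06g0115400 did so with copper in processed signals (log2 ratio -1.24). Of all genes, 7.44% were at least 2-fold higher and 0.393% lower with copper, and 5.23% higher and 0.538% lower with cadmium.

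**Figure D1:**
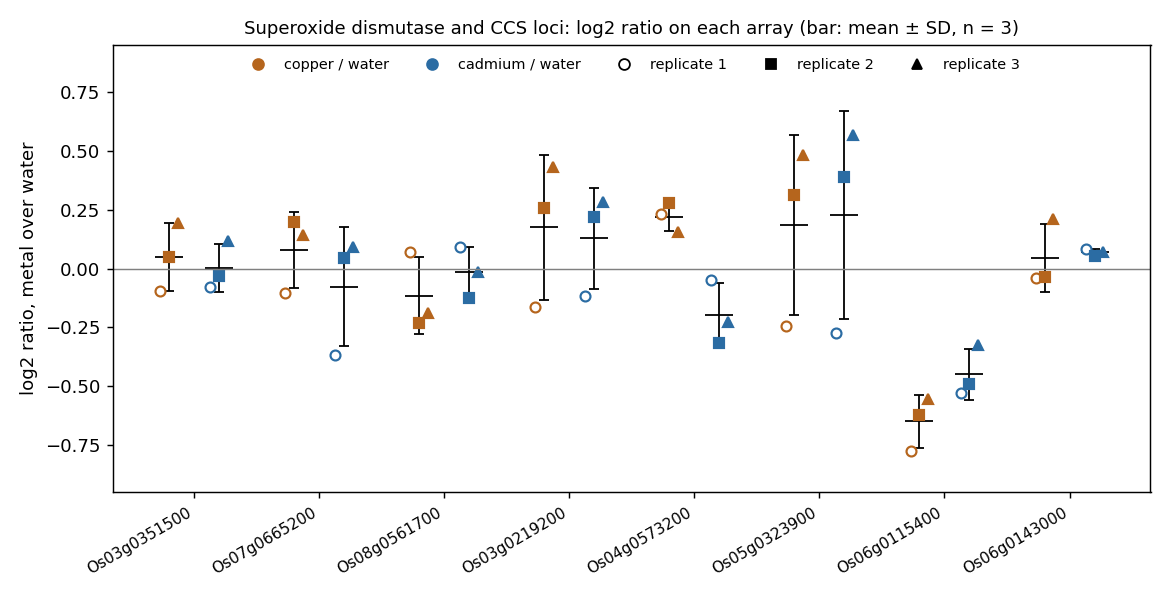
Log2 ratio of metal-treated over water roots on each array for the 8 loci, copper (brown) left of cadmium (blue), with open circles for replicate 1, squares for replicate 2 and triangles for replicate 3. Bars give the mean ± SD (n = 3). Os06g0115400 lies below 0 on all 6 arrays, between -0.77 and -0.33, and Os04g0573200 lies above 0 on every copper array and below 0 on every cadmium array.

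Os06g0115400 was the locus of the set called with both metals. Its probe AK111656 had processed signals of 76.0, 132 and 129 in copper-treated roots, against 186, 283 and 324 in the water roots of the same arrays. In cadmium-treated roots the signals were 85.5, 123 and 171, against 181, 234 and 265 in their water roots. The treated channel was the lower one on every array. The log2 ratios were -0.77, -0.62 and -0.55 with copper and -0.53, -0.49 and -0.33 with cadmium. Of all genes with a value on every array, 18.8% likewise lay below 0 on all 6. The locus fell by 0.65 ± 0.11 on the log2 scale with copper (SD, n = 3, limma adjusted p = 0.000544), which is 1.57-fold lower. With cadmium it fell by 0.45 ± 0.11 (SD, n = 3, limma adjusted p = 0.00446), which is 1.36-fold lower. Among all genes, 2.67% had a lower log2 ratio with copper and 5.61% with cadmium.

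The second probe of Os06g0115400, AK112038, gave the same calls. Its log2 ratios were -0.53, -0.66 and -0.47 with copper and -0.59, -0.32 and -0.22 with cadmium. When every kept probe was tested on its own, the mean was -0.55 with copper (limma adjusted p = 0.00227) and -0.38 with cadmium (limma adjusted p = 0.0159). The size of the fall differed with the processing. An offset added to both channels draws the ratio of a dim probe towards 0. With an offset of 16 in place of 50, the log2 ratio was -0.80 with copper and -0.54 with cadmium. With the scanner's processed signals, which carry no such offset and are also dye-normalized, it was -1.24 with copper and -0.88 with cadmium. Centred on the median, these gave -1.10 and -0.79. The part of each step was not tested. With the log2 ratios scaled between arrays the cadmium call was lost (log2 ratio -0.55, limma adjusted p = 0.0609, where the 20 alternatives ran between 0.00161 and 0.0609).

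**Figure D2:**
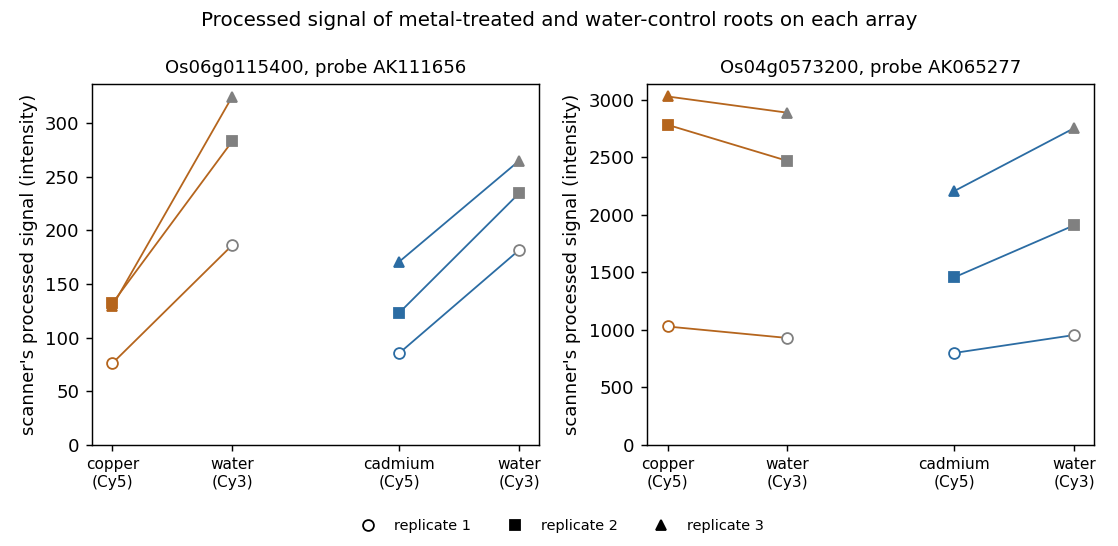
Scanner's processed signal (intensity, linear axis from 0) of 1 probe each of Os06g0115400 and Os04g0573200, with metal-treated roots (Cy5) left of the water roots (Cy3) of the same array and a line joining the channels of an array. The lines of Os06g0115400 rise towards water on all 6 arrays, while those of Os04g0573200 fall towards water on the copper arrays and rise on the cadmium arrays.

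The fall of Os06g0115400 did not differ between the metals beyond the test. On AK111656 all copper ratios lay below all cadmium ratios, a pattern that 15.7% of all genes with a value on every array also had. On AK112038 they did not, since cadmium replicate 1 (-0.59) lay below copper replicates 1 and 3 (-0.53 and -0.47). The difference on AK111656, copper minus cadmium, was -0.20 (95% interval -0.46 to 0.06, limma adjusted p = 0.314). Within the slide that holds both metals it was -0.18, and between the replicate 1 arrays -0.24.

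The genes whose 6 log2 ratios lay closest to those of Os06g0115400 were Os04g0663100 and Os11g0629500, at root mean square differences of 0.0646 and 0.0664 among 22609 genes compared. Os04g0663100 had log2 changes of -0.66 with copper and -0.41 with cadmium, and Os11g0629500 of -0.60 and -0.49. The arrays share slides and possibly control RNA, and the likeness rests on 6 values.

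For Os04g0573200 copper and cadmium ratios lay on opposite sides of 0, though on the probe tested for the gene their difference did not pass. Its probe AK065277 had log2 ratios of 0.23, 0.28 and 0.15 with copper and of -0.05, -0.32 and -0.23 with cadmium. Copper ratios were all above 0 and cadmium ratios all below 0, which held for 2.77% of all genes. The reverse held for 2.45%. Processed signals were 1028, 2781 and 3028 in copper-treated roots, against 928, 2468 and 2887 in water roots, and 798, 1456 and 2206 in cadmium-treated roots, against 953, 1907 and 2751 in water roots. Replicate 1 had the lowest signals of both channels under each metal, and the direction of the ratio was the same on all 3 arrays of each metal.

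None of the 3 comparisons passed for that probe. The log2 change was 0.22 ± 0.06 with copper (SD, n = 3, limma adjusted p = 0.0535) and -0.20 ± 0.14 with cadmium (SD, n = 3, limma adjusted p = 0.0882). The difference was 0.42 (95% interval 0.16 to 0.67, limma adjusted p = 0.0531). With the replicate number as a block the copper change passed (adjusted p = 0.0437, where the 20 alternatives ran between 0.0205 and 0.216). So did the difference, at adjusted p = 0.0449 where the alternatives ran between 0.00566 and 0.248. The cadmium change did not, at 0.068 where the alternatives ran between 0.0122 and 0.357. Without cadmium replicate 1 all 3 passed, at adjusted p = 0.0278 for copper, 0.0437 for cadmium and 0.028 for the difference. With any other array left out none of the 3 passed, and the limma adjusted p of the difference ran between 0.0792 and 0.183. Of the 20 alternatives, 5 passed with copper, 6 with cadmium and 8 for the difference. Within the shared slide the difference was 0.49 (adjusted p = 0.00698 with slide as a fixed block), and between the replicate 1 arrays it was 0.28.

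The other kept probe of Os04g0573200, AK120348, passed in all 3 comparisons when every probe was tested on its own. Its log2 ratios were 0.22, 0.33 and 0.19 with copper, all above 0. With cadmium they were -0.51, -0.20 and -0.26, all below 0. It was higher with copper by 0.25 (limma adjusted p = 0.0461), lower with cadmium at -0.32 (limma adjusted p = 0.021), and its difference was 0.57 (limma adjusted p = 0.0221). The mean of both kept probes passed likewise, with 0.23, -0.26 and 0.49 (limma adjusted p = 0.0205, 0.0173 and 0.0138). The remaining 2 probes of the locus, AK110034 and AK110251, were not well above background in the water channel of any copper array and were not tested.

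Os05g0323900 and Os03g0219200 differed more between slides than between metals. Os05g0323900 is read by 8 probes. On the probe tested, D21118, the log2 ratios were -0.24, 0.31 and 0.48 with copper and -0.27, 0.39 and 0.57 with cadmium. Replicate 1 was below 0 and replicates 2 and 3 above 0 under both metals. The means were 0.18 ± 0.38 and 0.23 ± 0.44 (SD, n = 3 each), with limma adjusted p = 0.447 and 0.37. With only the shared slide they were 0.40 and 0.48 (adjusted p = 0.00196 and 0.000972), and with the replicate number as a block the means passed at adjusted p = 0.046 and 0.0286. With slide as a random block they were -0.01 and 0.05 (adjusted p = 0.965 and 0.839). Over 20 alternatives each, the adjusted p ran from 0.00196 to 0.965 with copper and from 0.000972 to 0.87 with cadmium.

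All 8 probes of Os05g0323900 had a mean above 0 under both metals, between 0.17 and 0.47 with copper and between 0.14 and 0.46 with cadmium. Tested singly, 2 probes passed with copper and 1 with cadmium, beside 43.0% and 34.2% of the probes that stood for a gene. Both probes that passed, AK104160 and D29734, lacked copper replicate 1, whose spots were marked as outliers, and D29734 also lacked cadmium replicate 1, so their means rest on the shared slide for those groups. Among the probes with a replicate 1 value, AK070528 had the smallest gap between slides, with 0.03, 0.23 and 0.32 with copper and 0.07, 0.26 and 0.34 with cadmium. All 6 of its ratios were above 0, without passing (adjusted p = 0.107 and 0.0856).

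**Figure D3:**
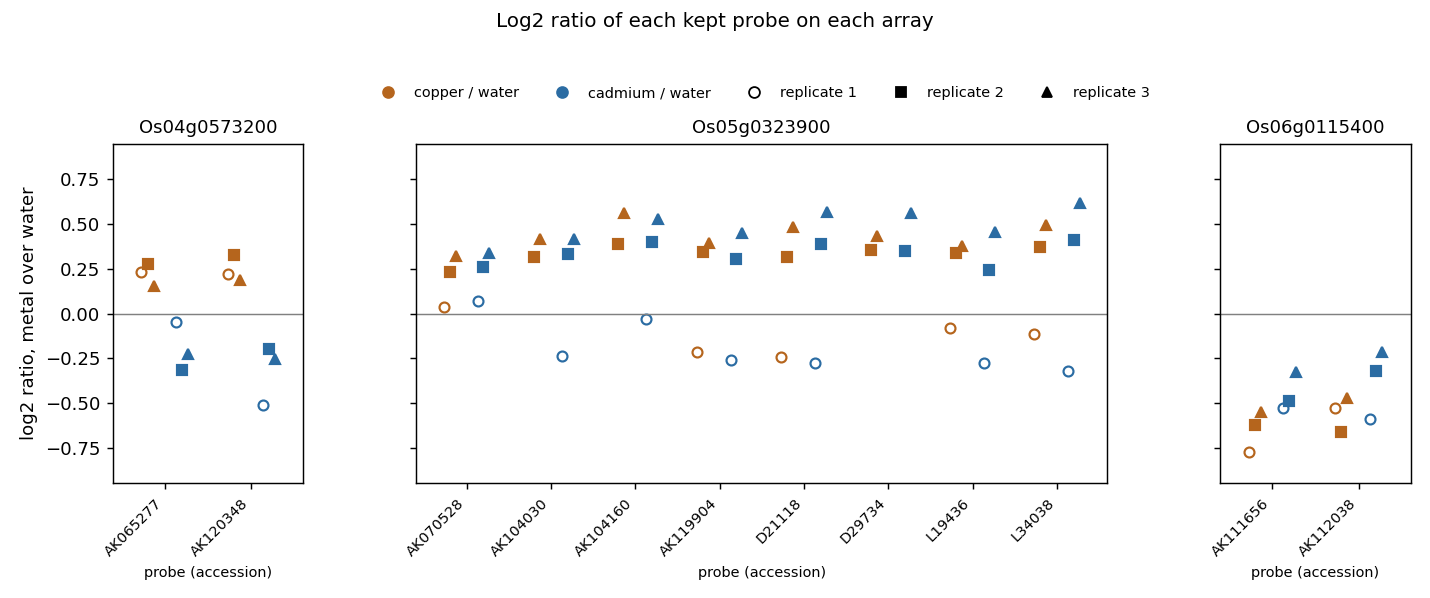
Log2 ratio of metal-treated over water roots on each array for the kept probes of Os04g0573200, Os05g0323900 and Os06g0115400, copper (brown) left of cadmium (blue), open circles for replicate 1, squares and triangles for replicates 2 and 3 on the shared slide. A missing circle is a spot marked as an outlier. The circles of Os05g0323900 sit below its squares and triangles wherever a circle is drawn, and both probes of Os04g0573200 have copper above 0 and cadmium below 0.

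Os03g0219200, with 1 probe, had log2 ratios of -0.16, 0.26 and 0.43 with copper and of -0.12, 0.22 and 0.28 with cadmium. Its means of 0.17 ± 0.31 and 0.13 ± 0.21 (SD, n = 3 each) did not pass (limma adjusted p = 0.302 and 0.465). On the shared slide alone they were 0.34 and 0.25 (adjusted p = 0.00314 and 0.0195). In 4 loci (Os03g0351500, Os07g0665200, Os03g0219200 and Os05g0323900) both replicate 1 arrays lay below all 4 arrays of the shared slide, and in Os08g0561700 both lay above. Of all genes, 15.5% had the first pattern and 13.7% the second. Slide, scan and replicate number 1 cannot be told apart here. Os03g0219200 and Os05g0323900 differed from each other by a root mean square of 0.16 over the 6 arrays.

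None of the remaining 4 loci passed the test with either metal. Os03g0351500 is read by 4 probes, and L36320 gave -0.10, 0.05 and 0.19 with copper and -0.08, -0.03 and 0.12 with cadmium. Its means were 0.05 ± 0.14 and 0.00 ± 0.10 (SD, n = 3 each), and the means of its 4 probes lay between -0.05 and 0.09 with copper and between -0.07 and 0.01 with cadmium. Os07g0665200, with 1 probe, had 0.08 ± 0.16 with copper and -0.08 ± 0.25 with cadmium (SD, n = 3 each). The cadmium value rests on -0.37 in replicate 1, against 0.04 and 0.09 in the other two.

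Os08g0561700 had 5 probes, with means between -0.16 and -0.02 under copper and between -0.15 and 0.10 under cadmium. Its probe AK104013 gave 0.07, -0.23 and -0.19 with copper and 0.09, -0.13 and -0.01 with cadmium. The mean was -0.12 ± 0.16 with copper (SD, n = 3, limma adjusted p = 0.313), and -0.21 on the shared slide alone (adjusted p = 0.0282). With cadmium it was -0.02 ± 0.11 (SD, n = 3, limma adjusted p = 0.9).

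Os06g0143000 is the other locus of the set on chromosome 6 and did not follow Os06g0115400. Its probe AK062073 had -0.04, -0.04 and 0.21 with copper and 0.08, 0.05 and 0.07 with cadmium. The means were 0.04 ± 0.15 and 0.07 ± 0.01 (SD, n = 3 each, limma adjusted p = 0.67 and 0.517). On AK062073 the cadmium ratios were small but all above 0, while in processed signals they were -0.04, -0.15 and -0.07. The other kept probes had mixed signs with cadmium. AB014056 had -0.04, 0.08 and 0.21, and AK071301 had 0.04, -0.18 and -0.20. The 95% intervals of AK062073, -0.14 to 0.22 with copper and -0.11 to 0.25 with cadmium, do not reach the values of Os06g0115400. The difference between these 2 loci was not tested.

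Between the metals, 0 of 8 loci passed the test (limma, adjusted p under 0.05), and 1, Os04g0573200, had an unadjusted p under 0.05, beside 6033 of 23425 genes. Over all genes 10.6% were called, 6.57% higher with copper than with cadmium and 4.06% lower. The median difference was 0.01 over the 8 loci and -0.01 over all genes. For the 7 loci other than Os04g0573200 the 95% interval of the difference held 0. It was widest for Os05g0323900, from -0.65 to 0.56, with a standard error of 0.26. With the replicate number as a block the difference was the same, -0.04, with a standard error of 0.08. For Os06g0143000 it ran from -0.28 to 0.23.

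**Figure D4:**
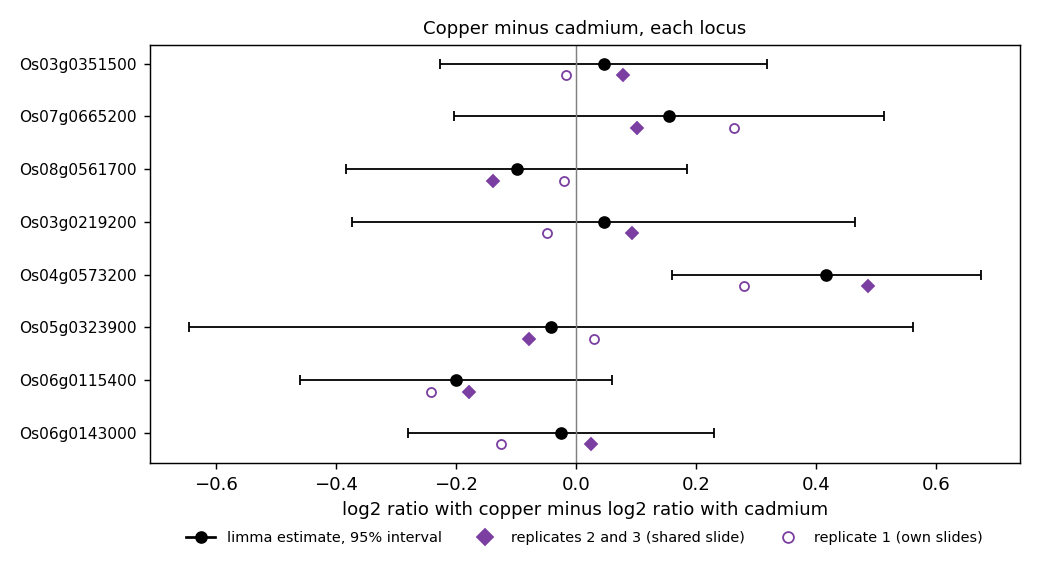
Difference of log2 ratios, copper minus cadmium, for the 8 loci, with black points and 95% intervals from limma, filled diamonds for replicates 2 and 3 on the shared slide and open circles for replicate 1. The interval of Os04g0573200 runs from 0.16 to 0.67, and those of the other 7 loci hold 0.

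Hydrogen peroxide, the product of the dismutases, is removed by catalases and by the ascorbate and glutathione cycle. Of 16 loci listed for catalases, ascorbate peroxidases, glutathione reductases and dehydroascorbate reductases, 13 were measured. This list rests on published rice nomenclature and is not annotated in the files. With copper 4 were called higher, 1 lower and 8 did not pass, with a median of -0.08. With cadmium 2 were called higher, 1 lower and 10 did not pass, with a median of -0.03. Between the metals 0 of 13 passed. Over all genes 25.4% were called higher and 17.5% lower with copper, and 21.1% higher and 12.9% lower with cadmium, so the list is not set apart by these counts.

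MicroRNA miR398 has probes for its mature sequence and for both flanks of its precursors. The mature probe of osa-miR398b was too dim to be kept, which left 2 probes, on the 5′ and 3′ flanks. The 5′ probe had log2 ratios of 0.38, 0.60 and 0.56 with copper and of 0.16, 0.44 and 0.37 with cadmium, all above 0. It was called higher with copper at 0.51 (limma adjusted p = 0.00247) and with cadmium at 0.32 (limma adjusted p = 0.0224). The 3′ probe gave 0.52 and 0.48, though among the cadmium arrays its water signal was well above background on 1 of 3. Between the metals the differences of 0.19 and 0.04 did not pass (adjusted p = 0.381 and 0.873). None of the 3 probes of osa-miR398a was kept. Of the other microRNAs linked to copper, osa-miR528 had 2 kept probes, on the 5′ flank and the mature sequence, which gave 0.30 and 0.42 with copper and 0.29 and 0.27 with cadmium. Neither passed. The 3′ probe of osa-miR408 was called higher with both metals (0.40 and 0.60), while its 5′ probe (0.09 and 0.20) and the 1 kept probe of osa-miR397b (0.14 and 0.11) did not pass. Beside these calls, 25.4% of all genes were called higher with copper and 21.1% with cadmium.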

How the data were processed

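Each of the 6 arrays carried 45151 spots. The deposited scanner output holds median spot and background intensity in both channels, with background-subtracted, dye-normalized processed signals and their log10 ratio, made with Feature Extraction 10.7.1.1 per the file headers. The authors' deposited series table holds log2 ratios, treated over water (slope 1 on each array when set against the scanner's ratio), with centring not given in the sources used here and column medians between -0.191 and -0.0498. Here the background was corrected by normexp (offset 50), arrays were normalized by loess, and spots marked as outliers were left out (4 of the set's spots). Probes well above background on all 3 arrays of a metal in a channel, with at least 2 values per metal, were kept. The brightest kept probe stood for its gene. All 23425 genes entered 1 fit of log2 ratios (limma 3.58.1, R 4.3.3), a coefficient per metal, two-sided, with Benjamini-Hochberg adjustment. The fit was tested on simulated data. Precision is limited by the number of arrays, which the labels call biological replicates.

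The members, lists and tests were chosen with earlier results of these data known. All 8 loci are named, and for Os06g0115400 the 2 genes of smallest root mean square difference. The replicate numbers, shared in the titles, were taken as pairs only in the fits with a replicate block, and the main fit held no block. Copper and cadmium arrays of 1 number deviated together from their group means, with correlations across genes of 0.365, 0.245 and 0.269. Copper replicate 2 with cadmium replicate 3, and 3 with 2, gave 0.234 and 0.19, close to 0.245 and 0.269. Those arrays share the slide, so a pairing by number and the slide cannot be told apart. Deviations from a group mean sum to 0, so the correlations are not independent.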

Additional observations from a re-analysis of the deposited data

Results flagged for a closer look

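Os04g0573200 was flagged for its difference between the metals. Every copper array was above 0 and every cadmium array below 0, as in 2.77% of genes with a value on every array. Its copper minus cadmium log2 ratio was 0.42, which missed the threshold in the test of the difference (limma adjusted p = 0.0531). On its second kept probe, AK120348, the difference was 0.57 and passed (limma adjusted p = 0.0221, adjusted over all kept probes).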

How the results depend on the processing

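Of the 8 loci, 1 was called with copper, 1 with cadmium and 0 between the metals. With copper the count was 2 with median-centred processed signals or the mean of kept probes (45.2% and 44.4% of all genes called). It was 3 with the replicate block and 5 on the shared slide alone (51.9% and 57.8%). With cadmium it was 2 with processed signals, the authors' table, median centring, the mean of kept probes or the replicate block. The shares of all genes called there were 42.2%, 42.2%, 27.4%, 35.2% and 44.1%. It was 4 on the shared slide alone (48.0%) and 0 with scaling between arrays (19.8%). Between the metals it was 1, Os04g0573200, with processed signals, these centred or the mean of kept probes. The shares of all genes called there were 9.63%, 8.83% and 11.4%, beside 10.6% in the main fit. It was also 1 with slide as a random or fixed block, the shared slide alone or the replicate block (25.1%, 26%, 25.9% and 16.2%). Those settings also called more of all genes than the main fit. Leaving out 1 array gave 1 to 2, 1 to 2 and 0 to 1. The higher counts all came without cadmium replicate 1 (49.8%, 28.6% and 10.9% of all genes called). The block changed no call other than those of Os04g0573200 and Os05g0323900 given above. On the shared slide alone or without cadmium replicate 1, Os05g0323900 (0.48) was further from 0 with cadmium than Os06g0115400 (-0.41). Os06g0115400 was called in 20 of 20 alternatives with copper and 19 with cadmium. No value called in the main fit changed sign. Os05g0323900 with copper, called on the shared slide and with the replicate block, was -0.01 with slide as a random block. Os03g0219200 with cadmium, called at 0.25 on the shared slide, was -0.00109 with that random block. Over all genes, the share of copper calls that were higher was 40.0% with processed signals, whose median was -0.13, against 59.3%, and 41.4% against 61.9% with cadmium. The arrays of the shared slide give 2 values per metal, so its calls rest on a small spread. The cause of these shifts was not tested.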
